A study of Mus musculus with 9 samples.

Results

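The muscle actins and smooth muscle markers described here are 10 genes: the skeletal, aortic smooth muscle, cardiac and enteric smooth muscle actins (Acta1, Acta2, Actc1 and Actg2), the smooth muscle contractile genes Tagln, Myh11 and Cnn1, the muscle intermediate filament gene Des, and Rgs5 and Abcc9, which are used as markers of pericytes. Members were taken by their single gene symbol in the probe annotation. Of the 10 genes, 9 were found, on 10 probe sets, among 14860 genes and 23332 probe sets in all. Actc1 was not analysed here, because no probe set was paired with that symbol alone. Rgs5 had 2 probe sets, of which the brighter over the 9 arrays stands for the gene.

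The tissue was perigonadal white fat of 4-month-old mice, and each genotype had 3 arrays. They were wild type (wt) and 2 homozygous mutants, G609G/G609G and LCS/LCS. Both alleles lie in the endogenous Lmna locus, which encodes the nuclear lamins A and C, so they act in every cell type that uses Lmna. G609G is known to make progerin, a truncated and permanently farnesylated lamin A. The labels do not spell out LCS, which is known from published work as an Lmna allele that yields lamin C without lamin A. The labels name no treatment, strain or sex. They do not say that replicates were separate animals, and p-values therefore cover only the spread among replicate arrays, part of which may be technical.

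All values are log2 signals, with means ± SD over n = 3 arrays, and changes are differences of log2 signal with their standard error (SE). Differences were tested two-sided with limma, in 1 fit of all 9 arrays. A change was called where the Benjamini-Hochberg adjusted p, taken over all probe sets, reached 0.05. Array medians were 6.36 to 6.45 in wt, 5.94 to 6.01 in G609G/G609G and 6.31 to 6.37 in LCS/LCS, and arrays of 1 genotype correlated at 0.986 to 0.995. As deposited, the median gene was therefore lower in G609G/G609G than in wt by a log2 change of -0.28, against 0.02 with quantile normalization and 0.14 with median centring. Values are as deposited unless a scaling is named. Of 8 measured white adipocyte markers, including Adipoq, Plin1 and Lep, all were present at 10.87 or more on every wt array. On every LCS/LCS array they were at 10.82 or more. The lowest value on a G609G/G609G array was 5.16, for Lep, whereas the Adipoq and Plin1 means there were 12.31 and 10.21. As deposited, 6 of the 8 were lower and 0 higher in G609G/G609G than in wt, beside 53.5% of all genes lower. Under all 3 scalings 4 were lower, beside 25.5% of all genes, and each other scaling called 2 higher. Markers of neighbouring tissues differed between genotypes too. As deposited, all 10 measured epididymis markers were lower in G609G/G609G than in wt, against 4 higher and 2 lower in LCS/LCS. All 7 measured testis markers were lower in both mutants, 5 of them in G609G/G609G and 7 in LCS/LCS under each scaling. Of all genes, 12.8% were higher and 9.77% lower in LCS/LCS than in wt, and 8.71% were lower under all 3 scalings.

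Actins polymerise into the thin filaments on which myosin pulls. Each muscle type builds most of its thin filaments from its own actin isoform, with Acta1 in skeletal muscle, Actc1 in heart, Acta2 in vessels and Actg2 in the gut and other hollow organs. In white fat, smooth muscle cells and pericytes lie around the blood vessels, where Acta2, Myh11, Cnn1 and Tagln mark contractile cells. Many of these genes are known targets of serum response factor with its coactivators of the myocardin family, which bind the CArG box, a pair of C bases, 6 A or T bases and a pair of G bases. Actin coding sequences are nearly identical, so probes of 1 actin may also bind the transcripts of another, Actc1 included, and the array values do not separate these.

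The promoters of 4 members with different patterns across the genotypes are shown, because the members are grouped below by how they moved. They come from RefSeq (GRCm38.p6), which had an entry for 7 of the 10 genes, and run from 250 bases before to 50 after the annotated start. Capitals mark CArG boxes and 10-base runs that differ from one by a single G or C among the central 6 bases. The windows are chr8:123894726-123895025 (minus strand) for Acta1, chr19:34255324-34255623 (minus strand) for Acta2, chr9:22099003-22099302 (plus strand) for Cnn1 and chr1:75360042-75360341 (plus strand) for Des.
Acta1: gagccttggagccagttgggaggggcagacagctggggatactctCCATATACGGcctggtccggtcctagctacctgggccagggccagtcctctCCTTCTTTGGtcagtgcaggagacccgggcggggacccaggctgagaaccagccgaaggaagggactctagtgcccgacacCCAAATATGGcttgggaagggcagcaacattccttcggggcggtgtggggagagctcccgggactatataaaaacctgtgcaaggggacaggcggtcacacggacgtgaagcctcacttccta
Acta2: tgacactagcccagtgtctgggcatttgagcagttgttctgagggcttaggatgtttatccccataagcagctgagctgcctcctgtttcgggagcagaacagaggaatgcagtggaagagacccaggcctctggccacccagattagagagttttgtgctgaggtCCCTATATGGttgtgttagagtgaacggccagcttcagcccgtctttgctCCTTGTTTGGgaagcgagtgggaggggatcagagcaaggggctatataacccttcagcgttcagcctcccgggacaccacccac
Cnn1: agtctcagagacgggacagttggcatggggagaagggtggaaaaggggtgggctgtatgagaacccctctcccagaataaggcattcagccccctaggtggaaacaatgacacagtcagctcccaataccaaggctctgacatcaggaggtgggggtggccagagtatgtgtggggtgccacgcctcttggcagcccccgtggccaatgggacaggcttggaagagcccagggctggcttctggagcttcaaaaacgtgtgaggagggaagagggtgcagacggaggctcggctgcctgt
Des: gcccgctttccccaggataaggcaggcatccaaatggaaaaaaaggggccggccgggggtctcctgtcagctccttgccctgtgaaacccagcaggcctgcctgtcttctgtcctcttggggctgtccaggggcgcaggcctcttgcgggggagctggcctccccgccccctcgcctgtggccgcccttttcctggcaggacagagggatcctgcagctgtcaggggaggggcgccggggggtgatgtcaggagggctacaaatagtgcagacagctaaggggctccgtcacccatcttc

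The Acta1 window held 1 CArG box, at positions -73 to -64 from the start, and 2 runs that differed by 1 base. The Acta2 window held 2 runs that differed by 1 base, at -84 to -75 and -34 to -25, and no exact box. The Cnn1 and Des windows held neither. Among all 32851 promoter windows, 1.63% held an exact box and 9.98% held a box with at most 1 such difference. The pattern reads the same on both strands. TATAA on either strand was present in the Acta1 window, at -7 to -3, and in the Acta2 window, at 11 to 15, after the annotated start. It was absent from the Cnn1 and Des windows, and 24.9% of all windows held it. All positions count from annotated starts, which were not checked here. CANNTG, the E-box core bound by myogenic factors among others, was present in all 7 member windows and in 72.3% of all windows. These matches describe letters only.

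All 9 measured members differed between the 3 genotypes in limma's moderated F test, as did 66.8% of all genes. They did not move together. Acta1 was highest in G609G/G609G and intermediate in LCS/LCS. Actg2 and both Rgs5 probe sets were lowest in G609G/G609G and highest in LCS/LCS as deposited. Myh11, Cnn1 and Tagln ran the other way, highest in G609G/G609G and lowest in LCS/LCS. Des and Abcc9 were higher in G609G/G609G, with no call between LCS/LCS and wt, and Acta2 differed little. The 3 comparisons between pairs of genotypes share arrays, so their values stand side by side and are not independent.

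**Figure D1:**
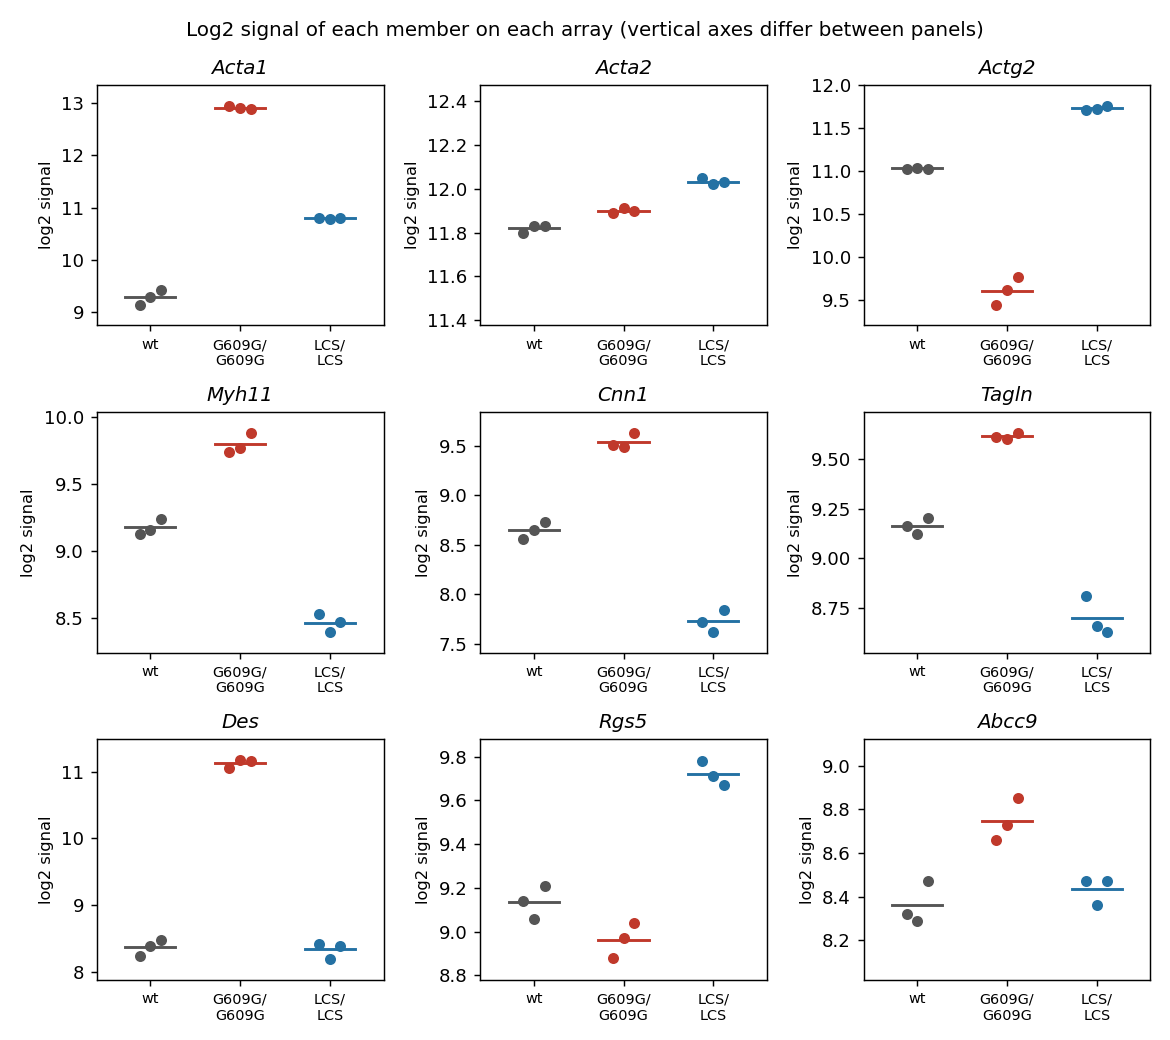
Log2 signal (vertical axes, which differ between panels) of the 9 measured members on each of 9 arrays, grouped by genotype (horizontal axes). Each point is 1 array and each line the mean of 3 arrays. Acta1 and Des reach 12.91 and 11.13 in G609G/G609G, Actg2 is lowest there at 9.61, and Myh11, Cnn1 and Tagln step down from G609G/G609G to wt to LCS/LCS.

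In G609G/G609G against wt, 6 of 9 members rose and 1 fell, beside 10.5% of all genes higher and 53.5% lower. Their median change was 0.45, against -0.28 over all genes. After either other scaling 8 rose and 1 fell, beside 28.5% higher and 29.5% lower of all genes in quantile normalized values and 43.9% higher and 27.6% lower in median centred ones. The 6 rises and the fall held under all 3 scalings, as did 10.2% of all genes as rises and 25.5% as falls. The arrays of the 2 genotypes did not overlap for any of the 9 members, nor for 69.1% of all genes. In bulk tissue, more cells of a type and more RNA per cell cannot be told apart, nor can fewer cells and less RNA.

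In LCS/LCS against wt, 4 members rose and 3 fell, beside 12.8% of all genes higher and 9.77% lower. The counts were 4 and 3 under each of the 3 scalings, beside 15.4% and 12.2% of all genes with quantile normalization, 20.4% and 9.21% with median centring, and 12.0% and 8.71% under all 3. The median change was 0.07, against 0.03 over all genes. The arrays did not overlap for 7 of 9 members, beside 43.7% of all genes. In G609G/G609G against LCS/LCS, 6 members were higher and 3 lower, beside 11.3% of all genes higher and 51.1% lower. After either other scaling 7 were higher and 2 lower, beside 27.8% and 29.5% of all genes with quantile normalization and 41.5% and 30.6% with median centring. Under all 3 scalings 6 were higher and 2 lower, beside 10.9% and 26.2% of all genes. The arrays did not overlap for any of the 9 members, beside 69.6% of all genes.

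**Figure D2:**
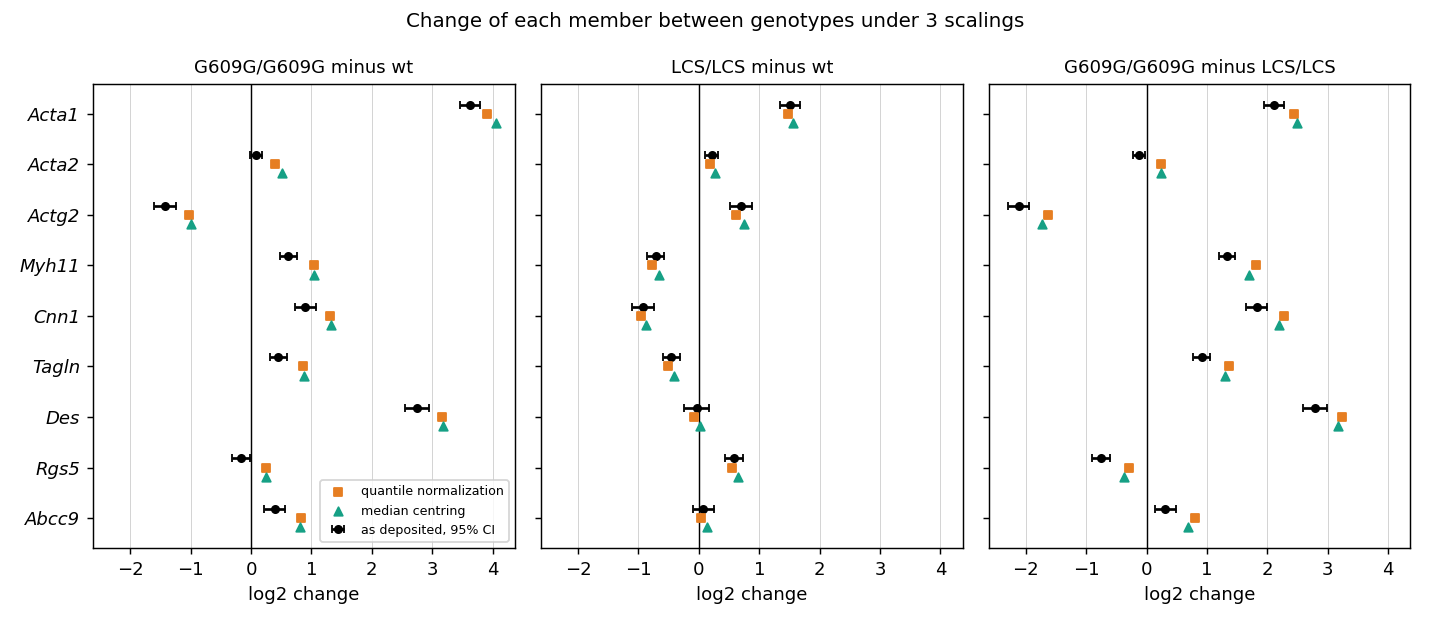
Log2 change (horizontal axes) of each member in 3 comparisons of genotypes. Black points are deposited values with 95% confidence intervals from the limma fit, orange squares follow quantile normalization and green triangles median centring. Other scalings shift every G609G/G609G change upwards, so that Rgs5 against wt and Acta2 against LCS/LCS cross 0, while Acta1, Actg2, Myh11, Cnn1, Tagln, Des and Abcc9 in G609G/G609G against wt keep their sides.

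Acta1, the actin of skeletal muscle thin filaments, had the largest change of the members in both mutants. Its signal was 9.15, 9.29 and 9.42 in wt, 12.95, 12.90 and 12.89 in G609G/G609G and 10.81, 10.78 and 10.81 in LCS/LCS. The 3 genotypes did not overlap, and the mutant arrays were closer to each other than the wt arrays were. Acta1 rose in G609G/G609G by 3.63 (SE 0.07, limma adjusted p = 9.03e-09), a 12.35-fold difference that ranked 46 from the top among 14860 genes. The rise in LCS/LCS was 1.51 (SE 0.07, limma adjusted p = 4.22e-06), a 2.85-fold difference that ranked 13 from the top. Between the mutants, Acta1 was higher in G609G/G609G by 2.11 (SE 0.07, limma adjusted p = 1.08e-07).

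The other genes of skeletal muscle moved beside Acta1 in G609G/G609G. Of the 18 measured skeletal muscle genes, all 18 rose there under each of the 3 scalings, beside 10.2% of all genes. Their median change was 5.56. Atp2a1, the calcium pump of fast fibres, rose by 7.88 and Tnnt3, fast troponin T, by 7.75. Summed over the list, the linear signal was 883 to 897 on wt arrays and 44273 to 46567 on G609G/G609G arrays. In LCS/LCS, 3 of the 18 rose as deposited, beside 12.8% of all genes, with a median change of 0.14 against 0.03 over all genes. Quantile normalization called 5 of the 18 higher and median centring 6, beside 15.4% and 20.4% of all genes. The largest change was 0.43, for Pvalb, the calcium buffer of fast fibres. Actn3, the alpha-actinin of fast fibres, and Myl1, a myosin light chain of fast fibres, each rose by 0.33. The summed signal there was 971 to 1034. The Acta1 change of 1.51 in LCS/LCS thus lay above that of every gene on the skeletal muscle list. No list value was at 0, since array signals carry background. The part of skeletal muscle RNA in the Acta1 values was not tested.

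Of 7 measured cardiac genes, 1 rose and 1 fell in G609G/G609G as deposited and with quantile normalization, and 6 rose and 1 fell with median centring. Of all genes, 10.5% rose and 53.5% fell as deposited, 28.5% and 29.5% with quantile normalization, and 43.9% and 27.6% with median centring. In LCS/LCS limma called 0 of 7 under each of the 3 scalings, and 0 had an unadjusted p under 0.05 as deposited. The rise was that of Myl2, the ventricular myosin light chain that slow skeletal fibres also use, by 3.02. Tnnt2, cardiac troponin T, fell by 0.88. The summed signal of the list was 157 to 175 in wt, 195 to 215 in G609G/G609G and 164 to 175 in LCS/LCS.

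Acta2, the actin of vascular smooth muscle and of myofibroblasts, had the narrowest spread of genotype means among the members. It was measured at 11.80, 11.83 and 11.83 in wt, 11.89, 11.91 and 11.90 in G609G/G609G and 12.05, 12.02 and 12.03 in LCS/LCS. The genotypes did not overlap, but the steps between them were small. The difference of G609G/G609G from wt was 0.08 (SE 0.04, 95% interval -0.02 to 0.18, limma adjusted p = 0.159) as deposited, and it was called higher with quantile normalized (0.40) and with median centred values (0.51). Acta2 rose in LCS/LCS by 0.21 (SE 0.04, limma adjusted p = 0.0115), also under both other scalings. That call was lost without wt replicate 1, LCS/LCS replicate 1 or LCS/LCS replicate 3, at limma adjusted p = 0.0525, 0.0543 and 0.051. Between the mutants its direction was not settled, at -0.13 as deposited (limma adjusted p = 0.0319), 0.23 quantile normalized and 0.24 median centred. The deposited call was lost without any 1 of 7 arrays, wt or G609G/G609G replicates 1 and 2 or any LCS/LCS replicate, at limma adjusted p = 0.0526 to 0.0992.

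Actg2, the gamma actin of gut and other visceral smooth muscle, moved in opposite directions in the mutants. The wt arrays gave 11.03, 11.04 and 11.03, the G609G/G609G arrays 9.45, 9.62 and 9.77, and the LCS/LCS arrays 11.71, 11.72 and 11.76. Every G609G/G609G array lay below every wt array, every LCS/LCS array lay above them, and the spread was widest in G609G/G609G. In G609G/G609G, Actg2 fell by 1.42 (SE 0.08, limma adjusted p = 2.06e-06), a 2.68-fold difference, and after quantile normalization the change was -1.03. It rose in LCS/LCS by 0.70 (SE 0.08, limma adjusted p = 0.000597). G609G/G609G was lower than LCS/LCS by 4.34-fold, a log2 change of -2.12 (limma adjusted p = 1.81e-07).

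A ratio of members within 1 array does not depend on how arrays were scaled by a constant. Relative to Acta2, Acta1 rose by 3.55 (SE 0.07) in G609G/G609G and by 1.30 (SE 0.07) in LCS/LCS, as means over 3 arrays each with no overlap with wt. Relative to Acta2, Actg2 changed by -1.50 (SE 0.09) in G609G/G609G and 0.48 (SE 0.02) in LCS/LCS. The 3 measured muscle actins therefore changed unequally in both mutants, with Acta1 up most, Acta2 between and Actg2 last in G609G/G609G, and with Actg2 between Acta1 and Acta2 in LCS/LCS. These are values with no test of their own, and the share of all genes whose ratios do not overlap was not counted.

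**Figure D3:**
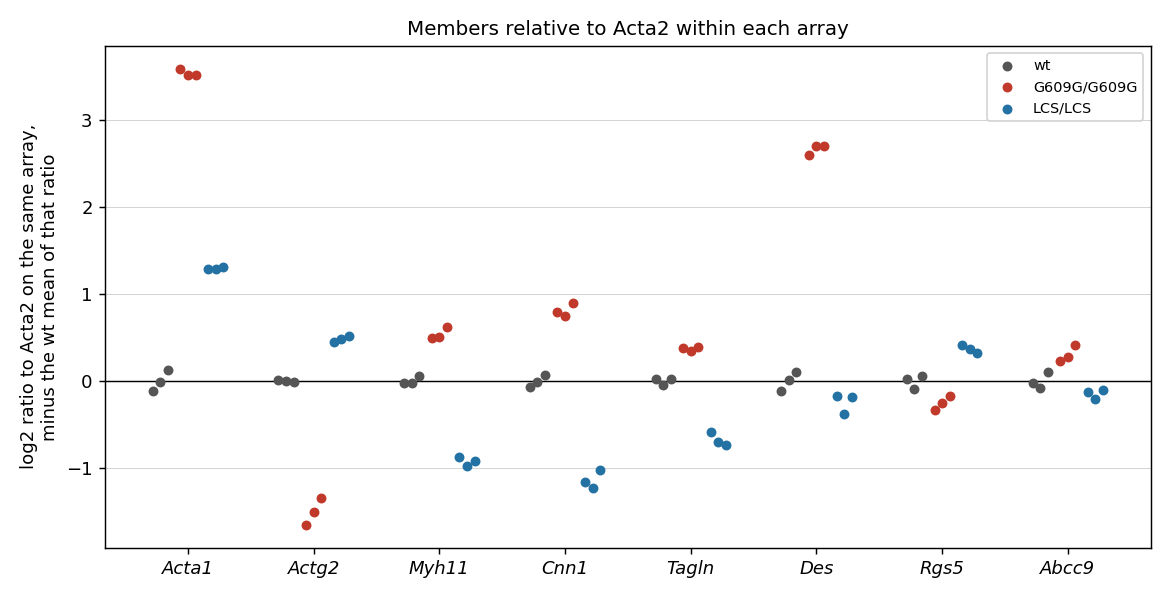
Log2 ratio of each member to Acta2 on the same array, after subtracting the mean of that ratio over the 3 wt arrays (vertical axis). Points are single arrays, in grey for wt, red for G609G/G609G and blue for LCS/LCS. For all 8 members the arrays of each mutant stand apart from those of wt. The share of all genes whose ratio to Acta2 does so was not counted. Plain signals did not overlap for 69.1% of all genes in G609G/G609G and 43.7% in LCS/LCS. All 8 ratios share the Acta2 values, which themselves did not overlap between genotypes. Myh11, Cnn1, Tagln, Des and Abcc9 lie above wt in G609G/G609G and below it in LCS/LCS, and Actg2 and Rgs5 the reverse. In LCS/LCS the signal of Acta2 itself rose by 0.21, and those of Des and Abcc9 were not called.

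Myh11, Cnn1 and Tagln, the contractile genes of differentiated smooth muscle, rose in G609G/G609G and fell in LCS/LCS under all 3 scalings. Cnn1 encodes calponin, an actin-binding protein that restrains the myosin ATPase. Its signal was 8.56, 8.65 and 8.73 in wt, 9.51, 9.49 and 9.63 in G609G/G609G and 7.72, 7.62 and 7.84 in LCS/LCS, so no genotype overlapped another. Cnn1 rose in G609G/G609G by 0.90 (SE 0.08, limma adjusted p = 2.4e-05) and in LCS/LCS it fell by 0.92 (SE 0.08, limma adjusted p = 0.000123). The mutants differed by 1.82 (SE 0.08), a 3.52-fold difference.

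Myh11 encodes the smooth muscle myosin heavy chain, the motor of these cells. It was 9.13, 9.16 and 9.24 in wt, 9.74, 9.77 and 9.88 in G609G/G609G and 8.53, 8.40 and 8.47 in LCS/LCS. All G609G/G609G arrays were above and all LCS/LCS arrays below the wt arrays. It rose in G609G/G609G by 0.62 (SE 0.06, limma adjusted p = 6.12e-05) and in LCS/LCS it fell by 0.71 (SE 0.06, limma adjusted p = 0.000159). The mutants differed 2.51-fold.

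Tagln encodes transgelin, also called SM22, an actin cross-linking protein that appears early in smooth muscle differentiation. It was 9.16, 9.12 and 9.20 in wt, 9.61, 9.60 and 9.63 in G609G/G609G and 8.81, 8.66 and 8.63 in LCS/LCS. The order of the genotypes was that of Cnn1 and Myh11, with smaller steps. It rose in G609G/G609G by 0.45 (SE 0.06, limma adjusted p = 0.000306) and in LCS/LCS it fell by 0.46 (SE 0.06, limma adjusted p = 0.0013). Both changes were below the 1.5-fold minimum that the study's design text sets, at 1.37-fold and 1.38-fold.

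Within arrays these 3 genes moved away from Acta2. Relative to it, Cnn1 changed by 0.82 (SE 0.06) in G609G/G609G and -1.13 (SE 0.07) in LCS/LCS, Myh11 by 0.54 and -0.92, and Tagln by 0.37 and -0.67. Relative to Myh11, also a smooth muscle gene, Actg2 changed by -2.04 (SE 0.06) in G609G/G609G and 1.41 (SE 0.05) in LCS/LCS. In every one of these pairs the arrays of each mutant did not overlap those of wt, but the share of all genes with such ratios was not counted.

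Other genes of the smooth muscle contractile apparatus changed in both directions. Of 17 measured genes on that list, 7 rose and 5 fell in G609G/G609G, beside 10.5% and 53.5% of all genes. The median change of the list was 0.03, against -0.28 over all genes. Under all 3 scalings 7 rises and 1 fall held, beside 10.2% and 25.5% of all genes. Quantile normalization gave 10 rises and 1 fall, beside 28.5% and 29.5% of all genes. Median centring gave 12 and 1, beside 43.9% and 27.6%. Pdlim3, a Z-line adaptor of muscle, rose by 2.66 and Tpm2, beta-tropomyosin, by 2.39, both of which skeletal muscle also expresses. Cnn2, the calponin of non-muscle and smooth muscle cells, fell by 1.42, and Ppp1r14a, an inhibitor of myosin phosphatase, fell by 0.64 as deposited. The Ppp1r14a call did not hold under all 3 scalings, with changes of -0.13 quantile normalized and -0.21 median centred, whereas that of Cnn2 did. In LCS/LCS 6 of the 17 rose and 4 fell (median 0.13), beside 12.8% and 9.77% of all genes (median 0.03). Of these calls on the list, 5 and 4 held under all 3 scalings, beside 12.0% and 8.71% of all genes. Tpm1, alpha-tropomyosin, changed there by -0.66 and Itga8, an integrin of smooth muscle and fibroblasts, by -0.54, while Cnn2 rose by 0.71 and Pdlim7 by 0.67. The calponins thus took opposite directions: Cnn1 rose and Cnn2 fell in G609G/G609G, and the reverse held in LCS/LCS. The summed signal of this list was 7768 to 8044 in wt, 13130 to 13807 in G609G/G609G and 8508 to 8781 in LCS/LCS. Such a sum weighs the brightest genes most. Tpm1, the brightest of the list in G609G/G609G, rose there by 1.88, from a mean of 10.41 in wt to 12.29. In the same comparison 5 of the 17 genes were not called as deposited, among them Smtn (0.09), Lmod1 (-0.01) and Mylk (0.03). Their sizes depended on the scaling. They were 0.55, 0.19 and 0.44 with quantile normalization and 0.52, 0.41 and 0.46 with median centring. These genes were named after their values were seen.

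Lists for other tissues moved beside these smooth muscle values. Besides the skeletal muscle list, the summed epididymis signal was 55677 to 57148 in wt, 8092 to 8597 in G609G/G609G and 59519 to 60191 in LCS/LCS. The summed testis signal was 6057 to 6810 in wt, 2460 to 2574 in G609G/G609G and 653 to 739 in LCS/LCS. No value of either list was at 0. The part of these tissues in the smooth muscle values was not tested.

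**Figure D4:**
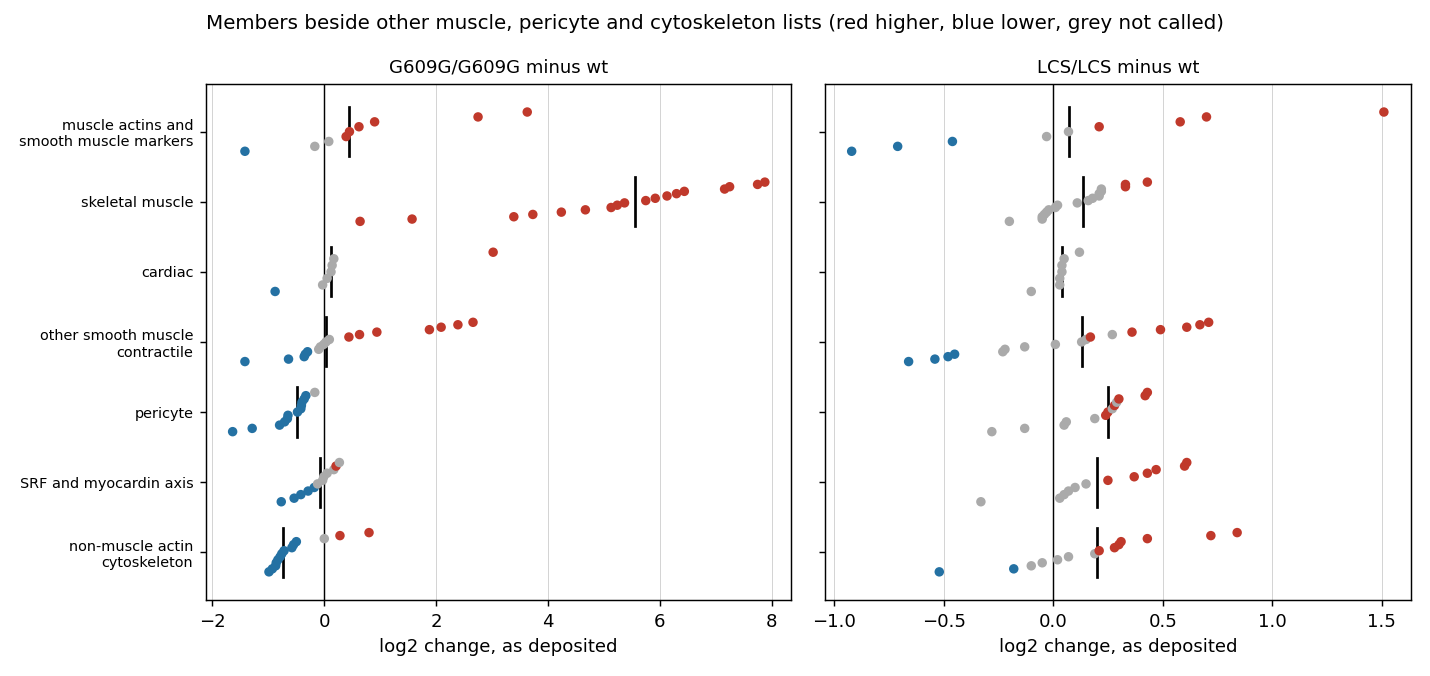
Log2 change of every measured gene (points) among the members and on 6 other lists in G609G/G609G against wt (left) and LCS/LCS against wt (right), as deposited, with different horizontal scales. Red points were called higher, blue lower and grey not called, and black bars are medians. In G609G/G609G the skeletal muscle list has a median of 5.56 and the pericyte list of -0.48, beside -0.28 over all genes. In LCS/LCS the Acta1 change of 1.51 lies outside the range of every other list shown.

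Des encodes desmin, the intermediate filament protein that links the myofibrils of skeletal, cardiac and smooth muscle. The wt arrays gave 8.24, 8.40 and 8.49, the G609G/G609G arrays 11.05, 11.17 and 11.16, and the LCS/LCS arrays 8.43, 8.20 and 8.40. The G609G/G609G arrays stood clear of the others, and wt and LCS/LCS overlapped. Des rose in G609G/G609G by 2.75 (SE 0.09, limma adjusted p = 1.21e-07), a 6.73-fold difference that ranked 67 from the top of all genes. The difference of LCS/LCS from wt was -0.03 (SE 0.09, 95% interval -0.24 to 0.17, limma adjusted p = 0.872), and its sign turned after median centring (0.02). Acta1 and Des, both high in skeletal muscle, thus differed in LCS/LCS: relative to Des, Acta1 rose by 1.55 (SE 0.06) there and by 0.88 (SE 0.06) in G609G/G609G.

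Among 9 measured intermediate filament genes and desmin partners, 1 rose and 5 fell in G609G/G609G, of which 1 and 2 held under all 3 scalings. With quantile normalization 6 rose and 3 fell, and with median centring 6 and 2. Synm, synemin, which copolymerises with desmin, rose by 1.08. Vim, vimentin of mesenchymal cells, changed by -0.79 and Krt18, an epithelial keratin, by -0.73. In LCS/LCS 3 of the 9 rose and 1 fell, beside 12.8% and 9.77% of all genes. The largest rises were those of Cryab, a small heat shock protein that binds desmin, at 0.67 and Nes at 0.59.

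Rgs5 and Abcc9, which mark pericytes, took different courses. Rgs5 encodes a regulator that shortens G protein signalling in mural cells. Its brighter probe set gave 9.14, 9.06 and 9.21 in wt, 8.88, 8.97 and 9.04 in G609G/G609G and 9.78, 9.71 and 9.67 in LCS/LCS. The LCS/LCS arrays were above all others, and the G609G/G609G arrays lay just below the wt arrays. Rgs5 rose in LCS/LCS by 0.58 (SE 0.07, limma adjusted p = 0.000591). As deposited, G609G/G609G differed from wt by -0.17 (SE 0.07), which limma did not call (adjusted p = 0.0554), and it was called higher on the quantile normalized (0.24) and the median centred scale (0.25). Its direction there depended on the scaling. As deposited it was called lower without wt replicate 2 or G609G/G609G replicate 3, at limma adjusted p = 0.0473 and 0.0309. The dimmer probe set gave 7.85, 7.79 and 8.05 in wt, 7.47, 7.49 and 7.71 in G609G/G609G and 8.92, 8.67 and 8.83 in LCS/LCS. The order of the genotypes was the same, with larger steps of 0.91 (limma adjusted p = 0.000591) in LCS/LCS and -0.34 (limma adjusted p = 0.0227) in G609G/G609G. The latter turned to 0.19 with quantile normalization and 0.09 with median centring. Both probe sets were lower in G609G/G609G than in LCS/LCS under all 3 scalings, with changes of -0.76 and -1.25 as deposited.

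Abcc9 encodes SUR2, the regulatory subunit of the ATP-sensitive potassium channels of vascular smooth muscle, pericytes, heart and skeletal muscle. It was 8.32, 8.29 and 8.47 in wt, 8.66, 8.73 and 8.85 in G609G/G609G and 8.47, 8.36 and 8.47 in LCS/LCS. The G609G/G609G arrays were above the rest, and wt and LCS/LCS overlapped. It rose in G609G/G609G by 0.39 (SE 0.07, limma adjusted p = 0.0025), a 1.31-fold difference, and by 0.83 and 0.81 after the other scalings. The difference of LCS/LCS from wt was 0.07 (SE 0.07, 95% interval -0.10 to 0.25, limma adjusted p = 0.62). Relative to Abcc9, Rgs5 changed by -0.56 (SE 0.03) in G609G/G609G and 0.51 (SE 0.05) in LCS/LCS, without overlap with wt. The share of all genes with such ratios was not counted.

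Of 13 other measured pericyte genes, limma called 12 lower and 0 higher in G609G/G609G as deposited, beside 53.5% of all genes lower and 10.5% higher. Their median change was -0.48, against -0.28 over all genes. Of the 12, 4 stayed lower in each scaling, beside 25.5% of all genes. Quantile normalization called 6 lower and median centring 4, beside 29.5% and 27.6% of all genes. At an unadjusted p under 0.05, 13 were lower and 0 higher, and each other scaling called 1 higher. Mcam, an adhesion molecule of mural and endothelial cells, changed by -1.64 and Ebf1, a transcription factor that fat cells also use, by -1.29. In LCS/LCS 6 of the 13 rose under all 3 scalings, beside 12.0% of all genes. There limma called 0 lower as deposited, with 1 lower at an unadjusted p under 0.05 and 1 lower after quantile normalization. The rises were led by Ebf1 at 0.43 and Mcam at 0.42. Summed over the list, the signal was 4786 to 5055 in wt, 2401 to 2543 in G609G/G609G and 6024 to 6307 in LCS/LCS. Lists of other cell types moved in the same directions as the pericyte list, Actg2 and, in LCS/LCS, Rgs5. Under all 3 scalings, 8 of 9 measured fibroblast genes (median -1.27 as deposited) and 4 of 6 mesothelium genes (median -0.68) fell in G609G/G609G against wt. In LCS/LCS, 6 of 9 fibroblast, 7 of 10 endothelium and 4 of 6 mesothelium genes rose under all 3 scalings, with medians of 0.27, 0.28 and 0.47. The endothelium list had 3 rises and 4 falls in G609G/G609G as deposited, of which the 3 rises held under all 3 scalings. The summed fibroblast signal was 22658 to 23016 in wt, 14272 to 14732 in G609G/G609G and 26320 to 26385 in LCS/LCS, and no value of these lists was at 0. The part of these cell types in the Actg2, Rgs5 and pericyte values was not tested. Kcnj8, the pore subunit that partners SUR2 in pericytes, was named after its values were seen. It changed by -0.17 in G609G/G609G as deposited, which was not called, and the sign turned to that of Abcc9 with quantile normalization (0.37) and median centring (0.26). In LCS/LCS it rose by 0.24, and Abcc9 was not called there. A list of 10 measured relatives of Abcc9 and Rgs5 shares Kcnj8 and Rgs4 with the pericyte list. As deposited, 3 of the 10 rose and 5 fell in G609G/G609G, beside 10.5% and 53.5% of all genes. Either other scaling gave 5 rises and 3 falls. Of all genes, 28.5% rose and 29.5% fell with quantile normalization, and 43.9% and 27.6% with median centring. Under all 3 scalings 3 of the 10 rose and 3 fell, beside 10.2% and 25.5% of all genes. The largest changes were those of Rgs2 at 1.40 and Rgs10 at -1.36. In LCS/LCS 3 of the 10 rose and 1 fell as deposited, beside 12.8% and 9.77% of all genes, with Rgs18 at 0.65 and Rgs2 at -0.64.

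Genes of the serum response factor and myocardin axis were measured beside the members. The list holds regulators such as Srf, Myocd and Mrtfb and also other genes such as Vcl, Egr1 and Fos, so its counts do not describe the regulators alone. Of 12 measured, 1 rose and 5 fell in G609G/G609G against wt (median -0.07), beside 10.5% and 53.5% of all genes (median -0.28). Under all 3 scalings 1 of each held, beside 10.2% and 25.5% of all genes. Quantile normalization gave 6 rises and 1 fall, beside 28.5% and 29.5% of all genes. Median centring gave 8 and 1, beside 43.9% and 27.6%. Vcl, vinculin of cell adhesions, fell by 0.77, and Mrtfb, a myocardin-related coactivator, rose by 0.21. In LCS/LCS 6 of the 12 rose under all 3 scalings (median 0.20), beside 12.0% of all genes (median 0.03). There limma called 0 lower under any scaling, beside 8.71% of all genes lower under all 3, with 1 lower at an unadjusted p under 0.05. The rises were led by the immediate early genes Egr1 at 0.61 and Fos at 0.60. Srf and Myocd, named after their values were seen, encode serum response factor and its smooth muscle coactivator. Srf changed by -0.12 in G609G/G609G as deposited, which was not called, and the sign turned with quantile normalization (0.41) and median centring (0.31). It rose in LCS/LCS by 0.43. Myocd changed by 0.27 in G609G/G609G (0.73 quantile normalized, 0.69 median centred) and by -0.33 in LCS/LCS. Neither was called as deposited, at limma adjusted p = 0.0502 and 0.0583, close to the threshold. It was the 1 gene of the list lower in LCS/LCS at an unadjusted p under 0.05. Myocd was called higher in G609G/G609G than in LCS/LCS under all 3 scalings, by 0.60 as deposited and by 0.97 with either other scaling.

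The non-muscle actin cytoskeleton serves cell shape and movement in all cells. Of 14 measured genes on that list, 11 fell and 2 rose in G609G/G609G against wt (median -0.74), beside 53.5% and 10.5% of all genes (median -0.28). Under all 3 scalings 10 falls and 2 rises held, beside 25.5% and 10.2% of all genes. Capg, an actin-capping protein of macrophages and other cells, changed by -0.99 and Pfn2, a profilin, by -0.93, while Tpm3 rose by 0.80 and Cfl2, the muscle cofilin, by 0.28. Actb, the beta actin of all cells, was named after its values were seen and fell by 0.58, beside changes of -1.42 for Actg2 and 3.63 for Acta1. In LCS/LCS 7 of the 14 rose and 2 fell (median 0.20), beside 12.8% and 9.77% of all genes (median 0.03). Capg was at 0.84, Tpm4 at 0.72 and Actb at 0.21.

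Genes with the profile most like each member over the 9 arrays were sought by the root mean square difference of log2 signals, after each gene's own mean was subtracted. The nearest to Acta1 was Cdkn1a, the cell cycle inhibitor p21, at 0.382, with changes of 2.71 in G609G/G609G and 1.09 in LCS/LCS. Ankrd23, a titin-associated ankyrin repeat protein, followed at 0.391, with 3.81 and 0.80. The nearest member to Acta1 was Des, at 0.637.

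Des was closest to Pfkm, the muscle phosphofructokinase, at 0.127, with a change of 2.98 in G609G/G609G, and to Adssl1, the muscle adenylosuccinate synthase, at 0.150. Actg2 was closest to Cnn2 and to Ccl24, an eotaxin, both at 0.057. Cnn1 was closest to Acsm3, a mitochondrial acyl-CoA synthetase, at 0.082 and to Ppargc1a, a coactivator of mitochondrial genes, at 0.124. Ppargc1a changed by 1.11 in G609G/G609G and -0.77 in LCS/LCS, beside 0.90 and -0.92 for Cnn1.

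Myh11 was closest to Cacna2d1, a calcium channel subunit, and Crls1, the cardiolipin synthase, both at 0.117, and Tagln to Ptbp2, a splicing regulator, at 0.076 and Prkcq at 0.099. Acta2 was closest to Pxk at 0.031 and Gpx1, a glutathione peroxidase, at 0.033. Rgs5 was closest to Litaf at 0.031 and Aqp1, the water channel of capillary endothelium, at 0.051. Abcc9 was closest to Appbp2 at 0.027 and Nipsnap2 at 0.036. Small changes give small distances, so these values do not rank members against each other. Among the members themselves, Myh11 and Tagln were nearest, at 0.177, and Cnn1 was 0.205 from Myh11.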

How the data were processed

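Biotin-labelled material from total RNA was hybridised to Affymetrix arrays, per the labels' protocols. The values deposited by the authors are log2 signals per probe set, as read from their range. Their background correction, summarisation and scaling: not given in the sources used here. Per the submitters' processing notes the build is mm9. Detection calls were not used here, so low signals cannot be told from background, and the number of arrays limits precision. The series' design text names 10 samples, of which 9 were analysed.

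Sample titles gave the genotype and the replicate number. Of 23332 probe sets, 14996 had 1 gene symbol, 1019 several, and 7317 were not listed. Each gene was represented by its brightest probe set. The members and lists were chosen with earlier results of these data known. limma 3.58.1 (R 4.3.3) fitted a mean per genotype over all 9 arrays, with 6 residual degrees of freedom, and was tested on simulated data. Named besides the members were the 2 nearest genes per member, and per list at most 2 called genes in each direction. Exceptions were the white adipocyte markers, Actb, Kcnj8, Srf and Myocd, and in G609G/G609G also Tpm1, Smtn, Lmod1 and Mylk. In LCS/LCS, Actn3 and Myl1, both at 0.33, were named beside Pvalb. Predicted genes, receptors of smell, histones and immunoglobulins were skipped among nearest genes. Alternatives were quantile normalization, median centring, a replicate block, array weights, trended moderation, robust moderation, the methods' t-test, a filter on the dimmest 25% of probe sets, a 1.5-fold minimum, fits of 2 genotypes, averaged probe sets and leaving out each array. Figures used matplotlib 3.10.9, and tables Python 3.11.15 with pandas 2.3.3.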

Additional observations from a re-analysis of the deposited data

How the results depend on the processing

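Over 27 member changes and 570 alternative values, 529 kept the call, that is, higher, lower or not called. Des in LCS/LCS against wt was not called in any of them, but its sign turned in 4 (0.02 to 0.04). Of the members other than Acta2 and Rgs5, 433 of 441 values kept the call; the other 8 were Tagln and Abcc9 values below the 1.5-fold minimum. Reversed values were Rgs5 in G609G/G609G against wt (0.24 after quantile normalization, 0.25 after median centring) and Acta2 in G609G/G609G against LCS/LCS (0.23 and 0.24); G609G/G609G array medians were lower as deposited, and the cause was not tested. In G609G/G609G against wt, the count of members called lower was 1, and it was 2, with Rgs5 added, under trended moderation, array weights, the filter on dim probe sets and averaged probe sets. Leaving out arrays gave 1 to 2, with 2 without wt replicate 2 or G609G/G609G replicate 3. In G609G/G609G against LCS/LCS the count of members lower was 3, and 2 to 3 without single arrays, Acta2 being lost. In LCS/LCS against wt, 4 members were called higher (3 to 4 without single arrays), and 2 (Acta1 and Actg2) with a 1.5-fold minimum in limma or in the methods' t-test. With that minimum the members lower there went from 3 to 2, those higher in G609G/G609G from 6 to 4 against wt and from 6 to 5 against LCS/LCS, and those lower against LCS/LCS from 3 to 2. Samples shared only a replicate number: deviations of same-numbered arrays correlated at -0.07 to 0.23, against -0.17 to 0.12 for different numbers. With the replicate block, counts were 6 higher and 1 lower, 4 and 3, and 6 and 2 in the 3 comparisons, and only Acta2 in G609G/G609G against LCS/LCS lost its call (-0.13, limma adjusted p = 0.0546).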
